A study of Mus musculus with 36 samples.

Results

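The 8 genes described here encode core members of the endothelin and renin-angiotensin systems. They were the rows of the deposited table named Edn1, Edn3, Ednra, Ednrb, Ece1, Agt, Agtr1a and Ace, each found once, 8 of 25626 listed genes. They were chosen for their place in these pathways, with earlier results of these data known. The choice also named a rise of Edn3 after aortic constriction. The differences of Edn3 between constricted and sham hearts are therefore given as a description, with no test.

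The values come from RNA sequencing of whole mouse hearts in 6 groups of 6 animals. Con-Sham and Con-TAC were control mice that had a sham operation or TAC (transverse aortic constriction, a band on the aorta that loads the left ventricle), and both were labelled vehicle. Con-TAC-MQ were control mice with TAC labelled MitoQ, an antioxidant that accumulates in mitochondria. Tg-Sham, Tg-TAC and Tg-TAC-MQ were the same 3 treatments in mice labelled cSirt4-Tg, a transgenic line named after Sirt4, a mitochondrial sirtuin. The series asks how oxidants from mitochondria might act in the cardiomyopathy of cSirt4-Tg mice. Strain, age, the time after surgery, the dose of MitoQ and the promoter of the transgene are not stated in the sources used.

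Endothelins are small vasoconstrictor peptides that are cut from longer precursors, the last step by endothelin-converting enzymes, and act through the type A and type B receptors. Endothelin 1, made mainly by endothelial cells, drives contraction and growth in heart muscle. Endothelin 3 binds the type B receptor best and is known for its role in the development of melanocytes and enteric neurons. In the renin-angiotensin system, renin cuts angiotensinogen to angiotensin I, angiotensin-converting enzyme cuts this to angiotensin II, and the type 1 receptor carries most of the pressor and growth effects of angiotensin II. Both receptor families couple to Gq proteins and phospholipase C.

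The regions before the start sites of Edn3, Edn1 and Ace are shown because Edn3 and Edn1 are ligands of the same receptors with unlike values after TAC, and because Ace was the only member other than Edn3 whose Con-TAC and Con-Sham libraries did not overlap. Each is the 250 bases before the first RefSeq start of the gene, on the + strand of GRCm38.p6, at chr2:174760369-174760618 for Edn3, chr13:42301226-42301475 for Edn1 and chr11:105967698-105967947 for Ace. Capitals mark matches, on either strand, to any of 8 short motifs: TATAAA as the core promoter box, GATAA bound by GATA factors, TGANTCA bound by the Fos and Jun proteins, ACGTG as the core of the hypoxia response element, CCAAT bound by nuclear factor Y, GGGCGG bound by Sp1 and its relatives, GGAATG bound by TEAD factors and GGAAAA bound by the calcineurin-driven NFAT factors.
Edn3: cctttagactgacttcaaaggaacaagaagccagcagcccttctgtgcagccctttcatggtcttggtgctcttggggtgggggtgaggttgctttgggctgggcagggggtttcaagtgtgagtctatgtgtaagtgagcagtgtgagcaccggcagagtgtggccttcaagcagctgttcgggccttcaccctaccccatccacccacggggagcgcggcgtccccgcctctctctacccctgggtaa
Edn1: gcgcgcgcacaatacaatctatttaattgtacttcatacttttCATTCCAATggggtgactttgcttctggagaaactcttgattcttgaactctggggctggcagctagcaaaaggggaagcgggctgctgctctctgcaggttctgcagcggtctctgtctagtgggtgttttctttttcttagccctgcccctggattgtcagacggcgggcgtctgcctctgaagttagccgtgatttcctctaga
Ace: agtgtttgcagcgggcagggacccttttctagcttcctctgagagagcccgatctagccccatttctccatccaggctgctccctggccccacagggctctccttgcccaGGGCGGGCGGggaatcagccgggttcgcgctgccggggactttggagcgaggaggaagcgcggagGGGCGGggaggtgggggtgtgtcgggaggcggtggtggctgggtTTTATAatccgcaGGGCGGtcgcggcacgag
The Edn3 window held none of the 8 motifs. The Edn1 window held CCAAT at position -203 and GGAATG at -207 on the other strand, which share letters, with positions counted back from the start site. The Ace window held TATAAA on the other strand at -31 and GGGCGG at -140, -136, -75 and -18, of which the first 2 overlap. Among 32851 windows of the same length, TATAAA was in 12.4%, CCAAT in 33.8%, GGGCGG in 32.7% and GGAATG in 12.6%. GATAA was in 22.6% of them, TGANTCA in 6.75%, ACGTG in 16.6% and GGAAAA in 20.4%. A match is a run of letters, not a site shown to be bound. No promoter was matched for Agtr1a, and the other 7 members had at least 1.

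Depth ranged from 14.8 to 60.01 M reads on genes (median 28.4 M). Sirt4 did not separate the genotypes: its normalized read count was 412 ± 96.6 in Con-Sham, 377 ± 48.0 in Tg-Sham, 341 ± 49.6 in Con-TAC and 362 ± 57.8 in Tg-TAC (mean and SD, n = 6). The groups are therefore called as they were labelled. Cardiomyocyte markers were abundant in all libraries, while 3 atrial markers (Sln, Myl4, Myl7) summed to at most 146 in 33 of the 36 libraries and to 11919 in Con-TAC-MQ 5. In all, 3 libraries stood apart in ways that touch the values below. Tg-TAC 6 lay at sham levels for Ace and Edn3 and had the highest cardiomyocyte sum of its group, so that these values go against its label, and whether the label is right is not known. Tg-TAC 4 had adipocyte markers (Adipoq, Plin1, Lep, Cfd) summing to 30004, and the next highest library, Tg-TAC 1, had 246. Con-TAC 6 was named with a number of 20 or 21, as were all 12 MitoQ libraries and no other. The other Con-TAC libraries and 5 Tg-TAC libraries had numbers of 7 to 14, Tg-TAC 6 had one of 29 to 31, and each sham group was divided 3 and 3 between these last classes. What the number means is not stated in the sources used, so MitoQ and the number cannot be told apart in the mice labelled cSirt4-Tg.

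Per kilobase of exon, Ace had the highest mean level of the 8 genes over all libraries (588 normalized reads per kb), followed by Ece1 (459), Agtr1a (378), Ednra (213) and Ednrb (177). The lowest were Edn1 (74.9), Edn3 (69.8) and Agt (61.4). The order differed between groups, since these means pool groups that differ. In Con-Sham, Agtr1a was first (480 normalized reads per kb), before Ece1 (448) and Ace (324), and Edn3 (14.8) was below Agt (43.9). In Tg-TAC, Ace was first (1077) before Ece1 (449) and Agtr1a (231), and Edn1 was lowest (92.4), just below Agt (95.9). In the shallowest case 28 reads stood behind a value of Agt, 32 behind one of Edn3 and 68 behind one of Edn1, which gives counting errors of 18.9%, 17.7% and 12.1%. In whole-heart RNA, fewer cells of a type and less RNA per cell cannot be told apart.

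Edn3 (ENSMUSG00000027524, chr2:174602412-174625835 in mm39, + strand), the precursor of endothelin 3, was low in sham hearts and higher in every group with TAC. In Con-Sham it ran from 36.3 to 94.4 normalized reads with a median of 58.7. In Con-TAC it ran from 164 to 1026 with a median of 314, so that the lowest Con-TAC library lay above the highest Con-Sham library. In Con-TAC-MQ it ran from 168 to 753 with a median of 339, again without overlap with Con-Sham. The fitted difference, on the scale of log2(value + 1), was 2.51 ± 0.50 (SE) in Con-TAC and 2.44 ± 0.50 in Con-TAC-MQ against the same Con-Sham libraries, 5.68-fold and 5.43-fold. With the class of the library number (described above) as a covariate these differences were 1.78 and 0.11, the second resting on Con-TAC 6 as the only library that links the classes.

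In the mice labelled cSirt4-Tg the groups overlapped. Edn3 ran from 38.1 to 271 with a median of 121 in Tg-Sham, from 77.5 to 983 with a median of 451 in Tg-TAC, and from 143 to 497 with a median of 263 in Tg-TAC-MQ. The 6 Tg-TAC libraries had 454, 983, 447, 266, 622 and 77.5, and 4 of them lay above the whole Tg-Sham range. The difference between Tg-TAC and Tg-Sham was 1.72 ± 0.50, and 2.17 without Tg-TAC 6. That between Tg-TAC-MQ and Tg-Sham was 1.17 ± 0.50. The Tg-Sham libraries were themselves uneven, with 271 and 238 in libraries 1 and 2 and 38.1 to 131 in the other 4.

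Ordered by mean, Edn3 had 60.9 ± 19.8 (SD, n = 6) in Con-Sham, 140 ± 95.5 in Tg-Sham, 272 ± 122 in Tg-TAC-MQ, 369 ± 219 in Con-TAC-MQ, 405 ± 315 in Con-TAC and 475 ± 311 in Tg-TAC. Each group overlapped its neighbours in this order. The comparisons of Edn3 that do not set TAC against sham could be tested, with limma and Benjamini-Hochberg adjustment over all 16275 genes tested. Edn3 did not pass between Con-TAC-MQ and Con-TAC (-0.06, 95% interval -1.08 to 0.96, adjusted p = 0.965), nor between Tg-TAC-MQ and Tg-TAC (-0.55, -1.57 to 0.47, adjusted p = 0.476). These share the TAC libraries that the choice of Edn3 rested on. Between Tg-Sham and Con-Sham the difference was 0.92 (-0.10 to 1.95, adjusted p = 0.442), with 4 of 6 Tg-Sham libraries above the whole Con-Sham range. Between Tg-TAC and Con-TAC it was 0.14 (-0.88 to 1.16, adjusted p = 0.892). The interval for MitoQ in control hearts reaches nearly a doubling in either direction, so a moderate change of Edn3 was not detectable here.

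Of 4 markers of melanocytes, a cell type that endothelin 3 acts on, only Dct could be tested, and it rose after TAC in both genotypes. Dct, a pigment enzyme, had 82.3 ± 44.4 in Con-Sham and 265 ± 111 in Con-TAC (log2 difference 1.72 ± 0.44, limma, adjusted p = 0.0221), and 53.2 ± 23.7 in Tg-Sham and 207 ± 149 in Tg-TAC (1.76 ± 0.44, adjusted p = 0.00722). It did not follow Edn3 in all comparisons. Dct was 182 ± 83.3 in Con-TAC-MQ and 86.0 ± 25.0 in Tg-TAC-MQ. Neither MitoQ difference of Dct passed: -0.55 against Con-TAC (Edn3 -0.06) and -0.98 against Tg-TAC (Edn3 -0.55). The second had an unadjusted p under 0.05 by limma. Between Tg-Sham and Con-Sham Dct had -0.58, which did not pass, where Edn3 had 0.92. The other 3 melanocyte markers were nearly silent: Tyrp1 was at 0 in 31 of 36 libraries, Mlana in 12 and Pmel in 6, and none exceeded 22.3. The summed level of the 4 was 35.1 to 146 in Con-Sham, 98.1 to 418 in Con-TAC, 26.8 to 88.4 in Tg-Sham and 84.4 to 427 in Tg-TAC. The part of this cell type in the Edn3 values was not tested.

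**Figure D1:**
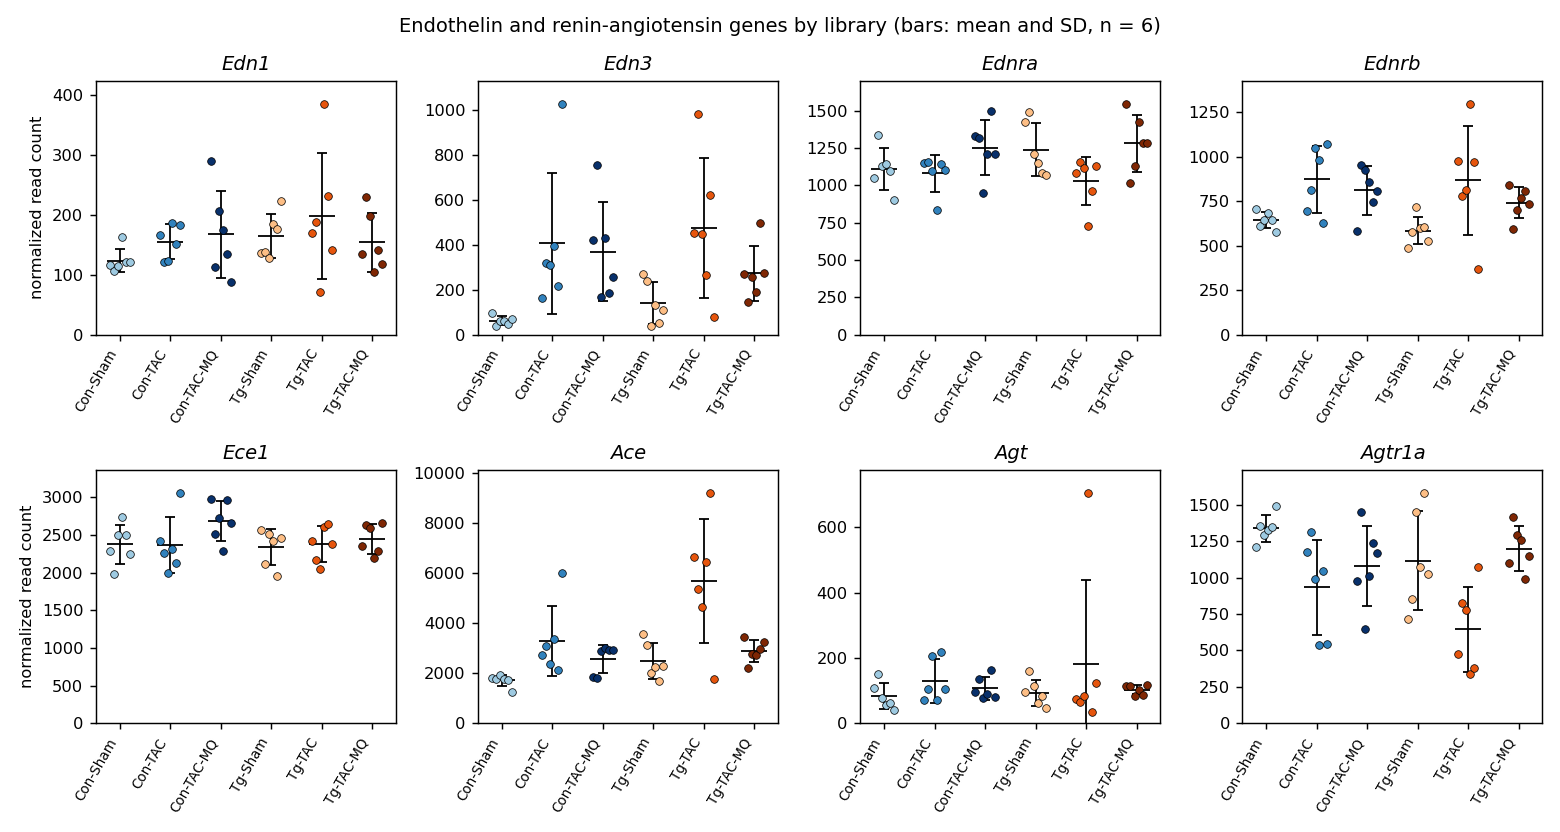
Normalized read counts (vertical axes, each from 0) of the 8 genes in the 36 libraries, by group (horizontal axes). Points are libraries and bars are the mean and SD of 6; the Con-TAC libraries of Edn3 (164 to 1026) and of Ace (2151 to 5996) all lie above their Con-Sham libraries, and 1 Tg-TAC library of Agt lies at 706, where the lower SD bar is clipped at the axis.

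Edn1 (ENSMUSG00000021367, chr13:42454952-42461466 in mm39, + strand), the precursor of endothelin 1, passed the test in none of the 9 comparisons of 2 groups. Its mean was 123 ± 19.7 in Con-Sham, 155 ± 28.9 in Con-TAC and 167 ± 73.0 in Con-TAC-MQ, and 164 ± 36.9 in Tg-Sham, 198 ± 106 in Tg-TAC and 154 ± 49.4 in Tg-TAC-MQ. All pairs of groups compared overlapped. The differences ran from -0.24 to 0.39 on the log2 scale and the lowest adjusted p was 0.506. After TAC the interval was -0.23 to 0.87 in control hearts and -0.42 to 0.67 in hearts labelled cSirt4-Tg, so a change as large as that of Edn3 lies outside both. The markers of endothelial cells, the main source of endothelin 1, were level: their sum was 22914 to 25887 in Con-Sham and 22340 to 26083 in Con-TAC.

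Ece1 (ENSMUSG00000057530, chr4:137589548-137692540 in mm39, + strand), the enzyme that releases active endothelins, was the steadiest member. Group means lay between 2337 ± 241 in Tg-Sham and 2687 ± 264 in Con-TAC-MQ. No comparison passed the test, the intervals of all 9 lay between -0.32 and 0.38, and the smallest unadjusted p was 0.0428, for Con-TAC-MQ minus Con-TAC (0.19, adjusted p = 0.245 by limma). Its TAC differences were -0.01 (-0.20 to 0.17) in control hearts and 0.03 (-0.16 to 0.21) in hearts labelled cSirt4-Tg. These were the narrowest intervals among the 8 genes.

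Ednra (ENSMUSG00000031616, chr8:78389660-78451093 in mm39, - strand), the type A receptor of smooth muscle and heart muscle, passed the test in no comparison with all libraries. It had 1110 ± 142 in Con-Sham, 1080 ± 124 in Con-TAC and 1252 ± 183 in Con-TAC-MQ. The corresponding values were 1238 ± 178 in Tg-Sham, 1028 ± 162 in Tg-TAC and 1281 ± 191 in Tg-TAC-MQ. The nearest to a call was Tg-TAC-MQ minus Tg-TAC, at 0.32 ± 0.12 (limma, adjusted p = 0.0571), where 4 of 6 MitoQ libraries lay above the whole Tg-TAC range. This one depended on the fit: the adjusted p was 0.0457 by edgeR and 0.0460 by DESeq2. It was 0.133 without Tg-TAC 4 and 6, Con-TAC-MQ 5 and Con-Sham 2 together. In all, 6 of 13 other fits passed (adjusted p 0.00953 to 0.554), as did 2 of 12 that left out 1 library. Tg-TAC minus Tg-Sham was -0.27 (adjusted p = 0.107), and -0.46 (0.0356) among the libraries numbered 7 to 14 alone. The lowest Tg-TAC library was Tg-TAC 4 with 726, against 965 to 1154 in the other 5.

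Ednrb (ENSMUSG00000022122, chr14:104052061-104081838 in mm39, - strand), the type B receptor and the main receptor of endothelin 3, had higher means after TAC that did not pass the test. It ran from 578 to 703 with a median of 646 in Con-Sham and from 627 to 1071 with a median of 897 in Con-TAC, where 4 of 6 libraries lay above the Con-Sham range (0.41 ± 0.18, limma, adjusted p = 0.166). In Tg-Sham it ran from 486 to 715. In Tg-TAC 5 libraries had 778 to 1295, all above that range, and Tg-TAC 6 had 368, below it. The difference was 0.48 ± 0.18 (adjusted p = 0.0578) with all libraries and 0.71 (adjusted p = 0.000243) without Tg-TAC 6, and edgeR and DESeq2 passed it with all libraries (adjusted p = 0.0251 and 0.0114). In all, 5 of 14 other fits passed this TAC difference (adjusted p 0.00165 to 0.204), and 1 of 12 that left out 1 library. An exact two-sided permutation test for this gene alone gave an unadjusted p = 0.0952. With MitoQ after TAC Ednrb was 811 ± 137 and 741 ± 87.1, and neither MitoQ difference passed (-0.09 and -0.14, adjusted p = 0.828 and 0.626).

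Ace (ENSMUSG00000020681, chr11:105858771-105880790 in mm39, + strand), the angiotensin-converting enzyme, which also breaks down bradykinin, rose after TAC in both genotypes. Con-Sham libraries had 1256 to 1912 with a median of 1779.5, and Con-TAC libraries 2151 to 5996 with a median of 2921, without overlap. Of the 7 members other than Edn3 it was the only one called in this comparison (0.86 ± 0.26, 1.82-fold, limma, adjusted p = 0.0461), against 5.3% of all genes tested called, 2.65% of them higher. Among these 7 members the group ranges were apart for Ace alone, and for 3.66% of all genes. The call was close to the threshold. It was lost in 10 of 12 fits that left out 1 library (adjusted p up to 0.115), with no filter on low values (0.0731), and with the class of the library number as a covariate (0.34, adjusted p = 0.462). Among the libraries numbered 7 to 14 alone, 3 Con-Sham and 5 Con-TAC, it was 0.56 (adjusted p = 0.199). All 6 Con-TAC libraries, and the 5 without Con-TAC 6, lay above every Con-Sham library, and the exact two-sided permutation test for this gene alone gave an unadjusted p = 0.00216.

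In hearts labelled cSirt4-Tg, Ace ran from 1678 to 3579 with a median of 2263 in Tg-Sham and had 6669, 5391, 4670, 6447, 9222 and 1781 in the 6 Tg-TAC libraries. The first 5 of these lay above the whole Tg-Sham range and Tg-TAC 6 within it. The difference was 1.09 ± 0.26, 2.12-fold (limma, adjusted p = 0.00571). It stayed past the threshold in all 12 fits that left out 1 library, and was 1.16 (adjusted p = 0.00149) among the libraries numbered 7 to 14 alone. The call was lost when the spread was taken from these 2 groups alone (adjusted p = 0.0663). Here 2 of the 7 members other than Edn3 were called, Ace and Agtr1a, against 16.7% of all genes tested, 7.91% of them higher and 8.77% lower.

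All 6 Tg-TAC-MQ libraries lay within the Tg-Sham range of Ace. The top of that range came from Tg-Sham 1 and 2 (3579 and 3135), and the other Tg-Sham libraries had 1678 to 2277. With MitoQ, Ace in Tg-TAC-MQ ran from 2212 to 3462 with a median of 2872. It was lower than in Tg-TAC by 0.83 ± 0.26 (log2 difference -0.83, 0.562-fold, limma, adjusted p = 0.0255), 1 of 2 members called there, 1 in each direction, against 17.3% of all genes called, 9.89% higher and 7.44% lower. This call was lost without Tg-TAC 1, 4 or 5 or without Tg-TAC-MQ 2 (adjusted p up to 0.0847), with the spread of these 2 groups alone (0.0783) and with equal totals outside the mitochondrial genome (0.0621), and the difference was -1.14 without Tg-TAC 6. In control hearts the MitoQ difference was -0.30 (-0.83 to 0.23, adjusted p = 0.579), with 1811 to 2999 in Con-TAC-MQ. The 2 MitoQ differences were not shown to differ: their interaction was -0.54 ± 0.37 (adjusted p = 0.674).

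Between the genotypes, Ace had 2489 ± 719 in Tg-Sham against 1712 ± 232 in Con-Sham (0.50, limma, adjusted p = 0.412). There 5 of 6 Tg-Sham libraries lay above the whole Con-Sham range. The exact two-sided permutation test for this gene alone gave an unadjusted p = 0.0195. After TAC, Ace had 5697 ± 2467 in Tg-TAC against 3284 ± 1403 in Con-TAC (0.73 ± 0.26, limma, adjusted p = 0.0766). This difference after TAC did not pass with all libraries. It passed without Tg-TAC 6 (adjusted p = 0.00112), without Con-TAC 6 (0.0146), by edgeR (0.0483) and by DESeq2 (0.0211). It also passed among the libraries numbered 7 to 14 (1.22, adjusted p = 0.000212). In all, 6 of 14 other fits passed (adjusted p up to 0.311), as did 2 of 12 that left out 1 library (up to 0.195). An exact two-sided permutation test for this gene alone gave an unadjusted p = 0.0952. With MitoQ the genotypes were 2898 ± 439 and 2573 ± 570 (0.19, adjusted p = 1.0).

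Fibroblast markers (Pdgfra, Tcf21, Dpt, Dcn, Lum, Gsn, Col15a1) moved with Ace in part. Their sum was 40700 to 50790 in Con-Sham, 46039 to 64525 in Con-TAC, 50577 to 66800 in Tg-Sham, 56526 to 74654 in Tg-TAC and 53574 to 66552 in Tg-TAC-MQ. After TAC 1 of the 7 rose in control hearts, against 2.65% of all genes. In hearts labelled cSirt4-Tg 3 of 7 rose (7.91% of all genes), and 2 of 7 fell with MitoQ (7.44%). Without TAC, all 7 had positive differences in Tg-Sham minus Con-Sham, with a list median of 0.37. There 1 was called higher (0.873% of all genes called in either direction), with 6 at an unadjusted p under 0.05 by limma. Endothelial markers were as level as for Edn1, with 1 of 8 called higher in each TAC comparison (2.65% and 7.91% of all genes). Endocardial markers (Npr3, Plvap, Cytl1, Nfatc1) had 2 of 4 called higher in Tg-TAC, against the same 7.91%. Cardiomyocyte markers had 4 of 8 called lower in Tg-TAC, against 8.77% of all genes. None was called in Con-TAC (2.65% of all genes lower), where 2 of 8 had an unadjusted p under 0.05 by limma. Smooth muscle and pericyte markers had 2 of 8 called higher in Tg-TAC (7.91% of all genes) and 1 of 8 lower with MitoQ there (7.44%). Macrophage markers had 0 of 6 called in both TAC comparisons (5.3% and 16.7% of all genes). Between the genotypes 4 of 6 were higher in Tg-Sham and 4 of 6 in Tg-TAC, against 0.873% and 6.48% of all genes. The part of these cell types in the Ace values was not tested.

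Agt (ENSMUSG00000031980, chr8:125283273-125296445 in mm39, - strand), angiotensinogen, the substrate of renin and made mainly by the liver, was among the 3 least abundant members per length in every group and passed the test in no comparison. Medians were 70.5 in Con-Sham, 105 in Con-TAC, 92.4 in Con-TAC-MQ, 89.5 in Tg-Sham, 79.5 in Tg-TAC and 107 in Tg-TAC-MQ. The Tg-TAC mean of 181 ± 259 rested on Tg-TAC 4 with 706, the library with the adipocyte markers, and the other 5 Tg-TAC libraries had 34.8 to 124. The TAC difference was 0.62 (-0.27 to 1.499, adjusted p = 0.416) in control hearts and 0.27 (-0.61 to 1.15, adjusted p = 0.707) in hearts labelled cSirt4-Tg, and -0.28 in the latter without Tg-TAC 4. The intervals of Agt are among the widest here, so changes below about a doubling were not detectable.

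Agtr1a (ENSMUSG00000049115, chr13:30520424-30566850 in mm39, + strand), the type 1 angiotensin II receptor, fell after TAC in hearts labelled cSirt4-Tg and was higher with MitoQ there. Tg-Sham libraries had 715 to 1582 with a median of 1049, and the 6 Tg-TAC libraries had 477, 828, 777, 336, 377 and 1072. All 6 lay below the mean of Tg-Sham, 3 of them below its whole range, and the highest was again Tg-TAC 6. The difference was -0.87 ± 0.24, 0.549-fold (limma, adjusted p = 0.0157). It was lost without Tg-TAC 4 or without Tg-TAC 5 (adjusted p up to 0.0566) and among the libraries numbered 7 to 14 alone (-0.88, adjusted p = 0.0786), and with the spread of these 2 groups alone (0.0873).

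In Tg-TAC-MQ, Agtr1a ran from 989 to 1414 with a median of 1202, and 5 of 6 libraries lay above the highest Tg-TAC library. It was 2.02-fold higher than in Tg-TAC (1.01 ± 0.24, limma, adjusted p = 0.00502), and the call stood in all 12 fits that left out 1 library. All 6 values lay within the Tg-Sham range, whose lowest libraries were Tg-Sham 1 and 2 (715 and 851, the others 1022 to 1582). As all Tg-TAC-MQ libraries have numbers of 20 or 21 and no Tg-TAC library has, MitoQ and the number cannot be told apart for this difference. Reads of Agtr1a may be shared with its close copy Agtr1b, which is not analysed here, so its values are uncertain to that extent.

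In control hearts, Agtr1a was even in Con-Sham, at 1208 to 1492 with a median of 1336, and spread in Con-TAC, at 536 to 1314 with a median of 1015. In Con-TAC, 5 of 6 libraries lay below the whole Con-Sham range, but the difference did not pass the test (-0.60 ± 0.24, limma, adjusted p = 0.136). The exact two-sided permutation test for this gene alone gave an unadjusted p = 0.00649. The TAC differences of the genotypes were not shown to differ: their interaction was -0.26 ± 0.35 (limma, adjusted p = 0.932). Con-TAC 4 and 6 had the lowest Con-TAC values, 536 and 542. With MitoQ the range was 646 to 1452 (0.25 against Con-TAC, adjusted p = 0.619). The MitoQ difference was larger in hearts labelled cSirt4-Tg by 0.76 ± 0.35 on the log2 scale, which did not pass the test of the interaction (unadjusted p = 0.0347, adjusted p = 0.574), and Tg-TAC minus Con-TAC was -0.58 (adjusted p = 0.130; -0.89 and 0.0321 among the libraries numbered 7 to 14).

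Cardiomyocyte markers moved with Agtr1a in part. In Tg-TAC against Tg-Sham 4 of 8 were called lower, against 8.77% of all genes. Their list median was -0.61 (-0.01 over all genes). In Tg-TAC-MQ against Tg-TAC 2 of 8 were called higher, against 9.89% of all genes, with a list median of 0.25. Their part in the Agtr1a values was not tested.

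**Figure D2:**
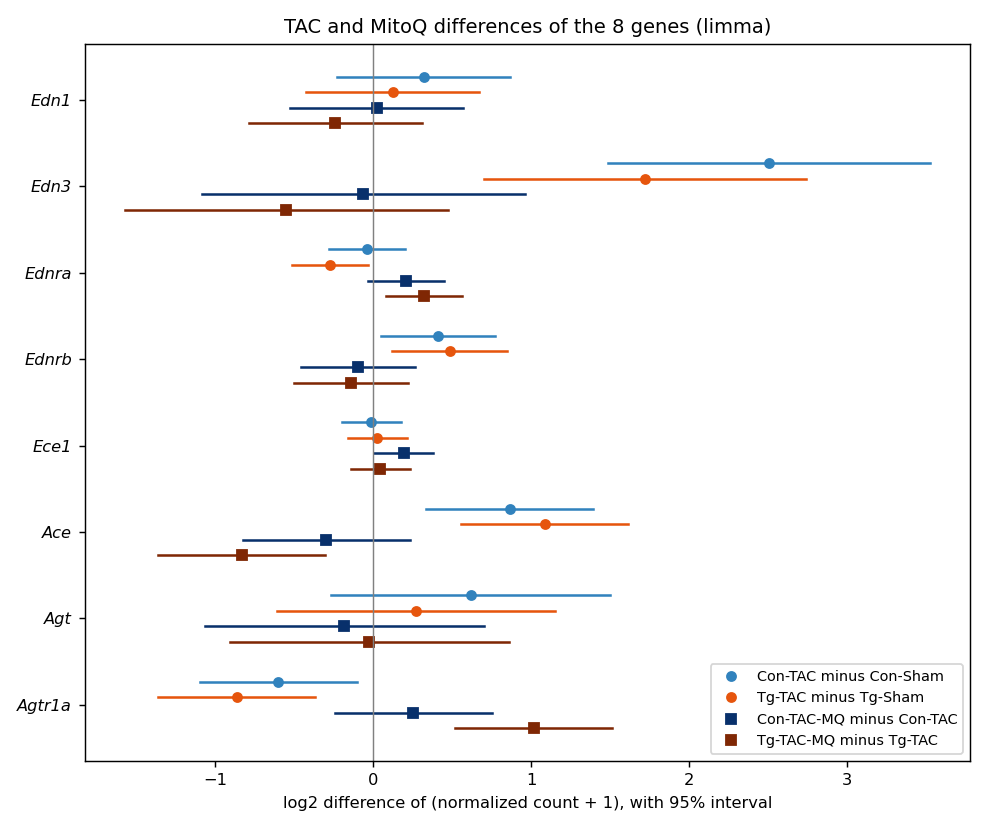
Fitted log2 differences of log2(value + 1) for the 8 genes (vertical axis), with 95% intervals (lines), for TAC against sham (circles) and MitoQ against vehicle after TAC (squares) in both genotypes. The Agtr1a points for Tg-TAC (-0.87) and for MitoQ (1.01) lie on opposite sides of 0, as do those of Ace (1.09 and -0.83). Both differences use the same Tg-TAC libraries with opposite sign, so they are not independent. The TAC differences of Edn3 are a description, since the choice of Edn3 named them.

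In comparisons with no member called, counts were as follows. Of the 8 members 0 passed in Con-TAC-MQ minus Con-TAC by limma, edgeR or DESeq2, with 1 (Ece1) at an unadjusted p under 0.05, against 3.23% of all genes called. Tg-TAC minus Con-TAC called 0 of 8 by limma and 1, Ace, by edgeR and by DESeq2, with 2 at an unadjusted p under 0.05, against 6.48% of all genes. Tg-Sham minus Con-Sham and Tg-TAC-MQ minus Con-TAC-MQ called 0 by each of the 3 tools, with 0 at an unadjusted p under 0.05, against 0.873% and 0.0737% of all genes. Of the 7 members other than Edn3, 0 passed in Con-TAC-MQ minus Con-Sham and 0 in Tg-TAC-MQ minus Tg-Sham by each of the 3 tools, with 1 (Ace) and 0 at an unadjusted p under 0.05, against 0.707% and 0.129% of all genes. Neither interaction was called for any of the 16275 genes by limma, while 949 and 1377 genes had an unadjusted p under 0.05 in the genotype-by-TAC and the genotype-by-MitoQ interaction. With shares this low in most of these comparisons, a count of 0 among 8 genes is near the background.

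Across the 36 libraries, Ace and Agtr1a ran in opposite directions. Pearson's r of their log2 values was -0.84 (Spearman's rho -0.77), and -0.74 for deviations from the group means. It was -0.76 without the 2 libraries farthest from the median of Agtr1a, Tg-TAC 4 and 5, and negative within each of the 6 groups, from -0.96 to -0.35. Ace and Edn3 had r = 0.71 (rho 0.74, deviations 0.59), with a positive r in 4 of the 6 groups, and Edn3 and its receptor gene Ednrb had r = 0.56 (rho 0.63, deviations 0.37). The libraries share the treatments, the size factors and Tg-TAC 6, so these are descriptions of the same hearts and are given with no test.

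**Figure D3:**
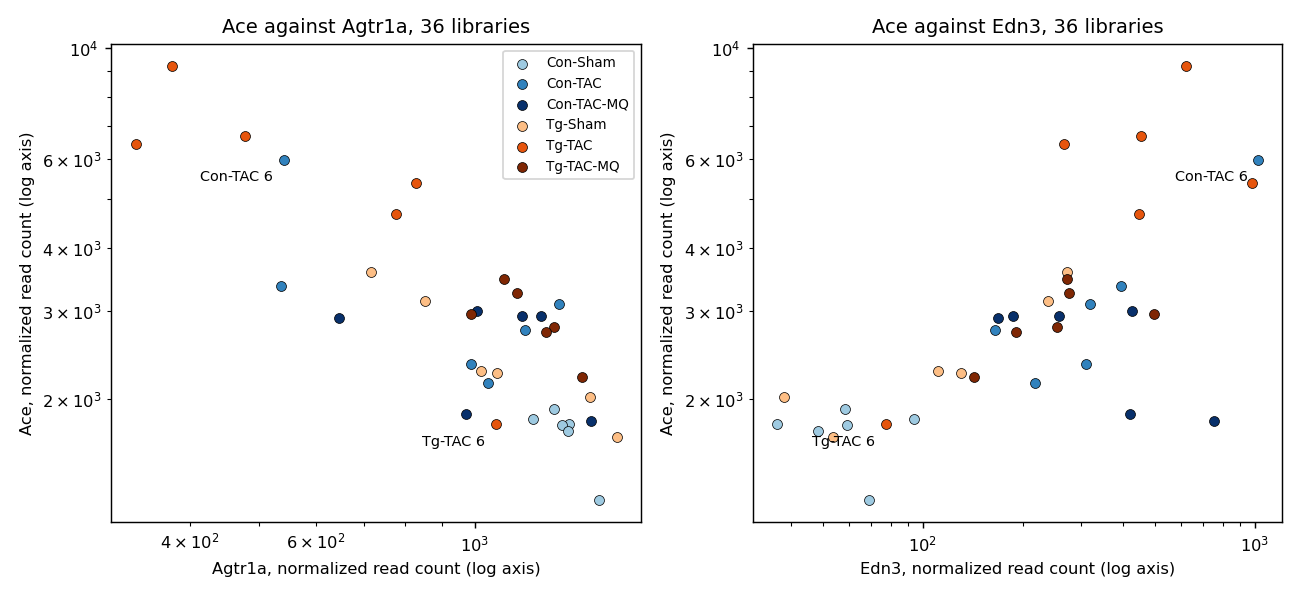
Ace (vertical, log axis, normalized reads) against Agtr1a (left) and Edn3 (right, log axes) in the 36 libraries, coloured by group. Libraries high in Ace are low in Agtr1a, with Con-TAC 6 (Ace 5996, Agtr1a 542) among most Tg-TAC libraries and Tg-TAC 6 (1781 and 1072) among the sham libraries.

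The genes most like each member over the 36 libraries, by Pearson's r of log2 values, were found among all genes tested. For Edn3 the 5 nearest were Nlrc3 (r = 0.89, 0.73 for deviations from the group means), Pde8a (0.88, 0.80), Tbx15 (0.87, 0.80), Sorbs2 (0.86, 0.78) and Cdv3 (0.86, 0.74). For Ace they were Postn (0.95, 0.90), which encodes the matrix protein periostin, and the microfibril genes Mfap4 (0.95, 0.89) and Mfap5 (0.95, 0.88). For Agtr1a they were Crhr2, a receptor of the corticotropin-releasing hormone family (0.92, 0.88), Reep1 (0.91, 0.86) and Tmem94 (0.91, 0.82). The other members had looser neighbours. For Ednrb they were Sema3f (0.86), Nedd9 (0.84) and Dync1li1 (0.77), for Ece1 Bmpr2 (0.79), Prickle2 (0.75) and Foxk1 (0.75), and for Ednra Stk35 (0.74), Tnxb (0.73) and Cdc37l1 (0.73). Edn1 had BC064078 (0.67), Btg1 (0.66) and Gpr183 (0.66), and Agt had Blk (0.69), Mgst1 (0.68) and Hacd2 (0.67). For Agt the rank correlations of these genes were 0.37 to 0.45.

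Of the other endothelin genes listed (Edn2, Ece2, Mme), only Mme passed the filter (10 or more normalized reads in 6 or more libraries). Edn2 reached 19.8 and Ece2 25.1 at most. Mme, neprilysin, which breaks down endothelins, natriuretic peptides and angiotensins, fell in Tg-TAC against Tg-Sham (-1.13 ± 0.26, limma, adjusted p = 0.00435), from 317 ± 58.1 to 168 ± 125. It was higher in Tg-TAC-MQ than in Tg-TAC (1.19 ± 0.26, adjusted p = 0.00236), at 329 ± 40.9, and lower in Tg-TAC than in Con-TAC (-0.98, adjusted p = 0.0269).

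Of 19 other renin-angiotensin genes 14 passed the filter. Ren1, renin, was at most 34.0 and Agtr2, the type 2 receptor, at most 6.37, both under the filter, and Ren2, Ctsg and Agtr1b are not analysed here. In Con-TAC 1 of the 14 was called, Nr3c2, the mineralocorticoid receptor, which fell by 0.77 ± 0.22 (limma, adjusted p = 0.0351). The median difference of the 14 was -0.04, against 0.01 over all genes, of which 5.3% were called. In Tg-TAC 3 of the 14 were called (median 0.05, all genes -0.01), near the 16.7% of all genes called. Atp6ap2, the prorenin receptor, rose by 0.40 ± 0.09 (limma, adjusted p = 0.00362), and Lnpep, the angiotensin IV-binding aminopeptidase, fell by 0.43 ± 0.09 (0.00166). Mas1, the receptor of angiotensin 1-7, fell by 1.77 ± 0.61 on the log2 scale (0.0428), from 20.8 to 10.9 reads. These levels lie closer together than the fitted difference, so the size of the Mas1 fall is uncertain at so few reads. In Tg-TAC-MQ minus Tg-TAC again 3 of 14 were called, near the 17.3% of all genes (both medians 0.00): Lnpep (0.42, adjusted p = 0.00137) and Enpep, the aminopeptidase that cuts angiotensin II (0.45, 0.0172), were higher and Atp6ap2 was lower (-0.33, 0.00899).

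All 22 genes of receptor coupling (Gq and G12 proteins, phospholipase C beta, inositol trisphosphate receptors, protein kinases C, RGS proteins, arrestins and receptor kinases) were tested. In Con-TAC 0 were called by limma, with 5 at an unadjusted p under 0.05, and the median was -0.03. In Tg-TAC 3 were called (median -0.01), no larger a share than the 16.7% of all genes: Rgs2, which shortens Gq signals, fell by 1.06 ± 0.35 (adjusted p = 0.0332), Prkce, protein kinase C epsilon, fell by 0.51 ± 0.13 (0.00895), and Grk5, a receptor kinase, rose by 0.57 ± 0.20 (0.0470). With MitoQ in hearts labelled cSirt4-Tg, 3 were higher, against 9.89% of all genes: Itpr1 (0.50, adjusted p = 0.00878), Prkce (0.48, 0.0112) and Gna12 (0.33, 0.0369). The other coupling genes, Gnaq and Gna11 among them, passed in none of the 9 comparisons.

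All 20 genes often linked to endothelin or angiotensin II in heart were tested. After TAC 5 of 20 rose in control hearts, against 2.65% of all genes, with a median over the list of 0.99 (0.01 over all genes): Acta1 (3.54 ± 0.57, limma, adjusted p = 0.000824), Nppa (2.38, 0.0452), Postn (2.32, 0.0333), Nppb (1.59, 0.0248) and Rcan1 (1.34, 0.0421). In hearts labelled cSirt4-Tg 8 of 20 rose, against 7.91% of all genes, and the median was 1.32 (-0.01 over all genes), with Postn at 2.84 (0.00401), Lox, which cross-links collagen, at 2.06 (0.0202) and Tgfb1 at 0.53 (0.00826). The others were Nppa, Acta1, Rcan1, Nppb and Ccn1. With MitoQ there 4 of 20 fell, against 7.44% of all genes: Postn (-1.81, 0.0463), Ccn2 (-1.63, 0.0220), Ccn1 (-0.74, 0.0162) and Tgfb1 (-0.49, 0.0112), with a list median of -0.91 (0.00 over all genes). In control hearts 0 of 20 passed with MitoQ, with 1 at an unadjusted p under 0.05 and a median of -0.04. The list was also higher between the genotypes. In Tg-Sham minus Con-Sham, without TAC, all 20 differences were positive, with a list median of 0.88 (0.00 over all genes). There 1 of 20 was called, against 0.873% of all genes, and 8 had an unadjusted p under 0.05 by limma. In Tg-TAC minus Con-TAC 19 of 20 were positive (median 1.02) and 1 was called, against 6.48% of all genes. These genes respond to many stimuli, and the list names them without showing which receptor acted.

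**Figure D4:**
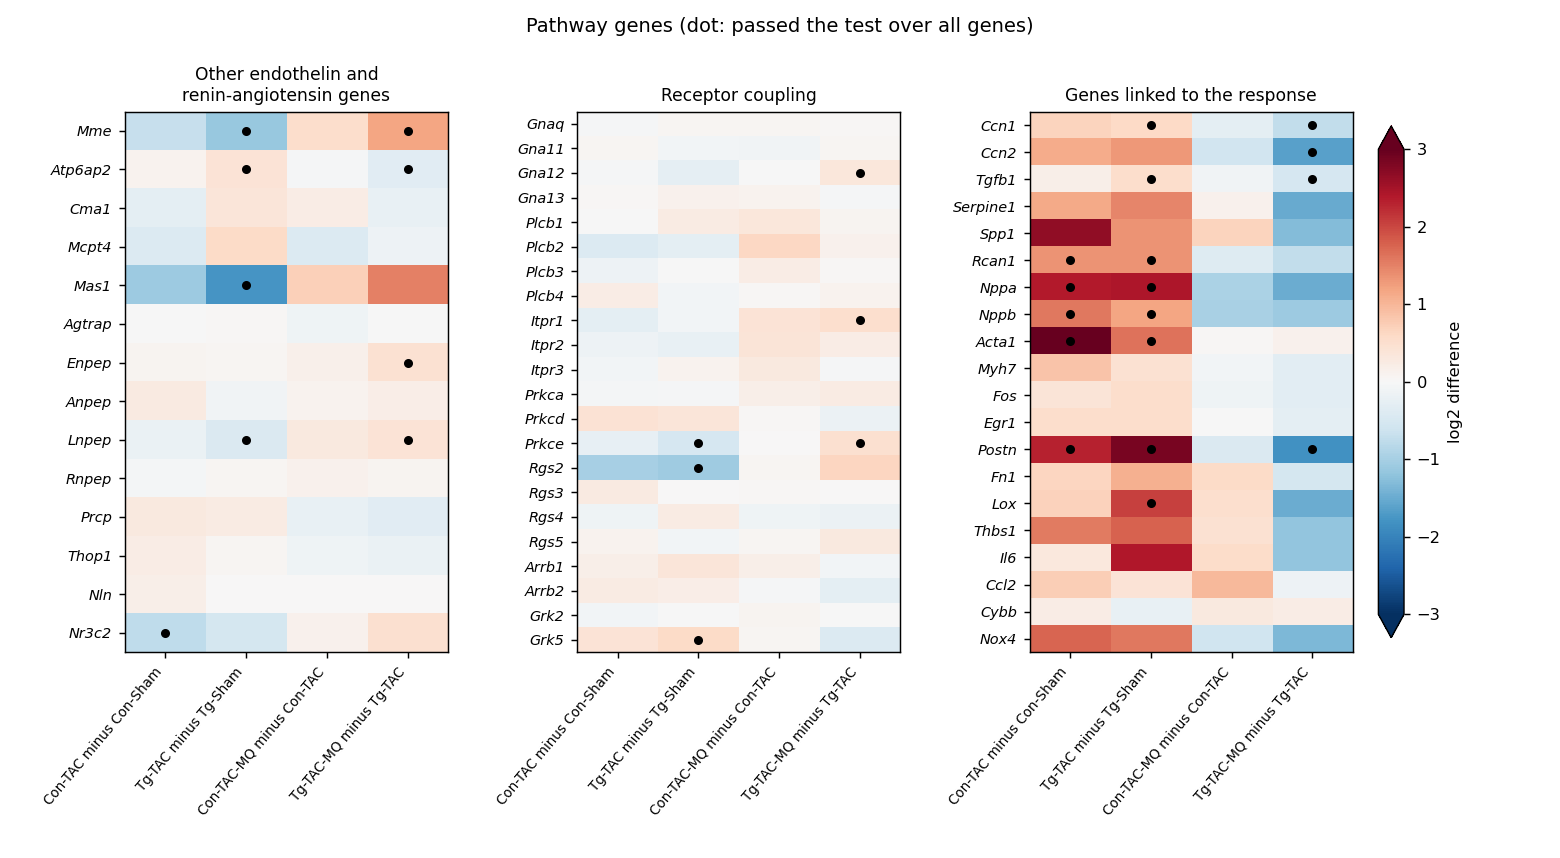
Fitted log2 differences (colour, red higher and blue lower) of other genes of the 2 pathways, of receptor coupling and of the linked response genes (rows) in 4 comparisons (columns). Black dots mark genes past the test over all 16275 genes; the response genes are the reddest panel after TAC, with 5 and 8 of 20 called, and receptor coupling is mostly pale.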

How the data were processed

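RNA from whole hearts of 36 mice in 6 groups of 6 was measured; groups come from the labels, which do not say whether samples shared a litter. Per the labels, the library kit kept the strand (NEB Next Ultra II Directional). Trimming used Trim Galore and alignment STAR with mm39, per the submitters' processing notes. Their versions, the counting tool and the normalizing tool are not stated in the sources used. The values the authors deposited are a signal, the normalized read count of a gene: 100% of values were whole reads (within 0.01 read) divided by 1 size factor per library, so reads were recovered, 14.8 to 60.01 M per library. The 4 rows without a gene name were left out.

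The main test was limma 3.58.1 (R 4.3.3) on log2(value + 1), with 1 mean per group over 36 libraries and trend and robust moderation, for the 16275 genes that had 10 or more normalized reads in 6 or more libraries. The 9 comparisons of 2 groups and 2 interactions had two-sided tests, adjusted by Benjamini-Hochberg across those genes, with a threshold of 0.05. Fold changes on this scale can understate changes of low genes. Levels per kb use exon unions of an annotation of another build, and promoters are RefSeq's of GRCm38.p6; gene coordinates are the table's.

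The members and lists were chosen with earlier results of these data known. Named genes are all 8 members, called members of the pathway lists, and the 5 (Edn3) or 3 genes with the highest Pearson r. Alternatives were pseudocounts of 0.5 and 10, a filter at 50 or none, TMM factors, equal totals outside the mitochondrial genome, array weights, a replicate block, fits of only the 2 groups at hand, the library-number class as a covariate, without 4 doubted libraries (Con-Sham 2, Con-TAC-MQ 5 and numbers 4 and 6 of Tg-TAC), count models of the recovered reads (edgeR 4.0.16, DESeq2 1.42.0), exact permutation, and leaving out each library. Fits of only the libraries numbered 7 to 14, or of only 29 to 31 for Tg-Sham minus Con-Sham, were added after seeing the data. The steps were tested on simulated data. Some listed genes are counted in their lists but not reported here by name.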

Additional observations from a re-analysis of the deposited data

Results flagged for a closer look

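Of 48 sets of 6 libraries (8 genes in 6 groups), 7 held a library whose gap to its nearest neighbour exceeded 0.625 of the range of the group, Dixon's 95% limit for 6 values; chance flags about 1 group in 20. Con-TAC 6 was flagged for Ace (5996, next 3365) and for Edn3 (1026, next 395). Tg-TAC 4 was flagged for Agt (706, next 124), Con-TAC 4 for Ednra (833, next 1098) and Tg-TAC-MQ 5 for Edn3 (497, next 276). In Con-Sham, library 6 was flagged for Ace (1256, next 1724) and library 4 for Edn1 (162, next 121). Tg-TAC 6, the lowest Tg-TAC library for Ace, Edn3 and Ednrb and the highest for Agtr1a, passed this limit for none of the 8 genes.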

How the results depend on the processing

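Of the members called, Agtr1a in Tg-TAC-MQ minus Tg-TAC kept its call in all 13 other fits and all 12 that left out 1 library (0.85 to 1.92), and Ace in Tg-TAC minus Tg-Sham in 13 of 14 and 12 of 12. Members other than Edn3 called in Con-TAC minus Con-Sham (1) numbered 0 without the filter, with the replicate block, with the library-number class and among libraries 7 to 14, 2 with array weights, and 0 to 1 leaving out 1 library. Those in Tg-TAC minus Tg-Sham (2) numbered 0 with only the libraries compared, and 1 to 3 leaving out 1 library. They numbered 3 (with Ednrb) with array weights, edgeR and DESeq2, among others, and Ednrb passed there in 5 of 14 other fits. Among libraries 7 to 14 Ednra passed in this comparison and Agtr1a did not. Con-TAC-MQ minus Con-TAC (0) had 1 with array weights and 0 to 1 leaving out 1. Tg-TAC-MQ minus Tg-TAC (2) had 1 with only the libraries compared, and 1 to 4 leaving out 1, the 4 without Tg-TAC 6. It had 3 (with Ednra) with array weights, edgeR and DESeq2, among others, and Ednra passed there in 6 of 13 other fits. Con-TAC-MQ minus Con-Sham (0) had 1 with equal totals outside the mitochondrial genome and 1 with array weights. Tg-TAC minus Con-TAC (0) had 2 with array weights, with the class and among libraries 7 to 14, 1 without the 4 doubted libraries, by edgeR and by DESeq2, and 0 to 2 leaving out 1 (2 without Con-TAC 6 or Tg-TAC 6).

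Some signs turned, in results that were not called or not tested. Edn3 in Con-TAC-MQ minus Con-TAC was 0.15 with array weights, 0.092 without the 4 doubted libraries and -0.31 to 0.26 leaving out 1; in Tg-TAC minus Con-TAC it was -0.14 to 0.59 leaving out 1, and its genotype-by-TAC interaction was 0.029 without the 4 doubted libraries. With the library-number class, which rests on Con-TAC 6 alone for MitoQ, Ece1 in Con-TAC-MQ minus Con-TAC was -0.19, Agtr1a and Ace in Con-TAC-MQ minus Con-Sham 0.69 and -0.92, and Edn3 and Ace in Tg-TAC-MQ minus Tg-Sham -1.16 and -1.23. The cause was not tested. Scaling to equal totals without mitochondrially encoded genes shifted the all-gene median by 0.10 to 0.17 in Con-TAC and Con-TAC-MQ minus Con-Sham, Tg-TAC-MQ minus Tg-TAC and Tg-TAC-MQ minus Tg-Sham; under it Ace in Tg-TAC-MQ minus Tg-TAC was -0.73 (adjusted p = 0.0621).

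Same-numbered replicates did not deviate together (r -0.48 to 0.31 over 54 pairs), so the numbers do not pair the libraries; with the replicate block Ace in Con-TAC minus Con-Sham had an adjusted p of 0.0666, and 0 members other than Edn3 were called there. Depth limits Agt, Edn3 and Edn1 in the shallowest libraries. TMM factors moved the all-gene calls of Tg-TAC-MQ minus Tg-TAC from 1610 higher and 1211 lower to 1900 and 951, and no filter those of Con-TAC minus Con-Sham from 431 and 432 to 293 and 231.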
